A study of Mus musculus with 9 samples.

Results

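Pseudogenes whose symbols end in -ps, most of them copies of genes that are highly expressed in every cell, were examined in blood stem and progenitor cells of mice carrying a mutant histone H3.3 transgene. A row of the expression table was taken when its name ended in -ps, with or without a number, and its level reached at least 1 RPKM in at least 3 of 9 libraries. RPKM is a read count scaled to transcript length and to library size. Of 37882 rows, 870 carried such a name, and 183 of these met the level. Another 434 were listed at 0 in every library and 253 lay between 0 and the threshold. The parent gene of each copy was the row named by the stem of its symbol, which was found for 169 members and gave 83 parents. The members were thus chosen by their RPKM in these same libraries, so their levels are given as a description with no test. Just inside the threshold, the third-highest values of Ppp4r1l-ps, Rpl26-ps4 and Rps2-ps6 were 1.01, 1.03 and 1.04 RPKM. Just outside it, those of Gpx2-ps1, Rps12-ps19 and Hist3h2bb-ps were 0.997, 0.993 and 0.991 RPKM.

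RNA was sequenced from LSK cells, a sorted bone marrow fraction negative for mature lineage markers and positive for Sca1 and cKit. K9M mice (n = 3 libraries) carried H3K9M in Col1a1 with rtTA in Rosa26. K36M mice (n = 3 libraries) carried H3K36M in Col1a1 with rtTA in Rosa26. The rtTA control mice (n = 3 libraries) carried rtTA in Rosa26 alone. The H3K9M and H3K36M transgenes replace lysine 9 or lysine 36 of the histone with methionine, and rtTA is an activator that works in the presence of doxycycline. The mice of all 9 libraries were 6 to 8 weeks old, on a B6/129 background, and drank water with 2 mg/ml doxycycline and 10 mg/ml sucrose. Each library is 1 replicate, and the labels do not say whether it comes from 1 mouse or from pooled mice. None of the groups had a transgene with unmutated H3.3, so the mutation and the presence of a transgene cannot be told apart against rtTA.

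A processed pseudogene arises when the messenger RNA of a gene is copied into DNA and inserted elsewhere in the genome, without introns and usually without a promoter. Genes with abundant messenger RNA in germ cells, above all those of ribosomal proteins, have left the most copies. Most such copies are not translated, but some lie where they are transcribed, and their likeness to the parent makes short reads hard to assign to 1 of them.

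H3f3a, one of the endogenous H3.3 genes, stood at 319, 284 and 296 RPKM in the K9M libraries, at 489.8, 409 and 480.4 RPKM in the K36M libraries, and at 256, 192 and 224 RPKM in the rtTA libraries. Both mutant groups lay above the control group without overlap. H3f3b, another H3.3 gene, stood at 178 to 271 RPKM over the 9 libraries, with log2 fold changes of -0.15 in K9M and -0.20 in K36M against rtTA that were not called (limma adjusted p = 0.855 and 0.448). H3f3c, a further H3.3 row that GENCODE M21 annotates as a processed pseudogene but whose name puts it outside the set, averaged 863 ± 53.0 RPKM in K9M, 2005 ± 374 RPKM in K36M and 256 ± 52.9 RPKM in rtTA libraries (SD, n = 3 each). It was called higher in K9M by 1.77 (limma adjusted p = 0.0126) and in K36M by 2.97 (limma adjusted p = 0.000437), in each case by more than H3f3a. Reads of the transgene cannot be told apart from those of these rows here. Depth, read from the steps that single reads leave in the lowest values, ran from about 15800000 to 50200000 reads, with K9M 3 the shallowest library and K36M 3 the deepest. The sort markers Ly6a (Sca1) and Kit reached 119 to 292 and 53.3 to 102 RPKM, and Cd3e, a T cell marker, stayed at or below 0.168 RPKM. Of the marker lists of other cells, 8 granulocyte genes summed to 439 to 1050 RPKM in K9M, 175 to 407 in K36M and 701 to 6185 in rtTA libraries, and 7 erythroid genes to 85.2 to 107, 154 to 266 and 42.5 to 89.0 RPKM in the same order. Sums of 7 B lineage genes were 19.4 to 23.7 in K9M, 30.7 to 35.5 in K36M and 36.6 to 47.4 RPKM in rtTA libraries. Those of 6 T and NK cell genes were 124 to 132, 102 to 148 and 91.4 to 97.0 RPKM in the same order, and those of 5 stroma and endothelium genes 17.2 to 20.8, 26.2 to 34.8 and 17.7 to 24.6 RPKM. No gene of these lists was at 0 in all libraries of a group, and the part of such cells in the results was not tested. In bulk samples, fewer cells of a type and less RNA per cell cannot be told apart.

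Copies of cytosolic ribosomal protein genes made up 126 of the 183 members, 68.9%, and 219 of the 870 names. They ranged from 0.562 to 1781 RPKM in their means over 9 libraries, with a median of 5.34 RPKM. The next kinds were small: 6 copies of high mobility group genes (chromatin proteins), 5 of chaperone genes, 3 of mitochondrial ribosomal protein genes, 3 of translation factor genes, 2 each of histone, metabolic and RNA-binding protein genes, and 1 of a cytoskeletal gene. The other 33 came from genes outside the kinds listed. None of 353 pseudogenes with immunoglobulin, histocompatibility or receptor names reached the threshold, and 320 of them were listed at 0. By the GENCODE M21 annotation of mm10, 163 members were processed pseudogenes and another 5 transcribed processed pseudogenes. A further 8 were transcribed unprocessed copies, among them Pisd-ps1 and Pisd-ps2. Despite their names, 5 are annotated as protein coding: Rpl10-ps3, Rpl9-ps6, Rps12-ps3, Vma21-ps and Nutf2-ps1. The remaining members were 1 unprocessed and 1 transcribed unitary pseudogene. A single exon was annotated for 168 members, their median exonic length was 483 bases, 60 lay within an intron of another gene and 18 lay on the X chromosome.

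The members were closely alike to their parents. Over the 167 members that could be aligned, the median identity was 98.5% and the lowest 80.9%, with 62 members at 99% or above and 19 at 100%. Levels were higher where more of the sequence was shared. The sequence of each member was cut into overlapping words of 50 bases, and the share of words also present in another annotated gene was counted. The 25 members with every word shared had a median of 199.7 RPKM, and 17 of them stood at 100 RPKM or above. The 43 members with up to 25% of their words shared had a median of 2.71 RPKM, and none reached 100 RPKM. By identity, 26 of the 62 members at 99% or above reached 100 RPKM, against 3 of the 37 between 98% and 99%, 0 of the 34 between 95% and 98% and 1 of the 34 below 95%. The medians of these 4 classes were 27.9, 4.46, 2.24 and 2.53 RPKM, so the lowest class did not have the lowest median. A value of a near-identical copy is therefore uncertain as a level of that copy, because the rule by which the authors counted reads that fit several places is not given in the sources used here.

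**Figure D1:**
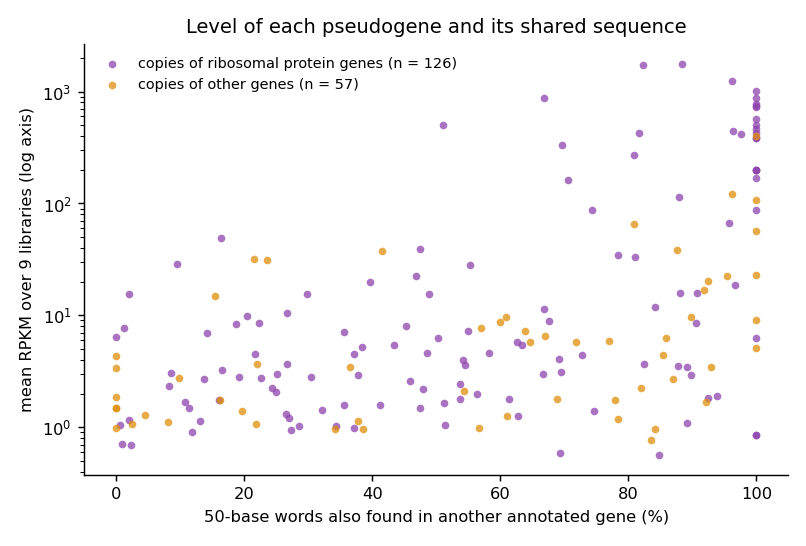
Mean RPKM over 9 libraries (log axis) of each of the 183 members against the percentage of its 50-base words found in another annotated gene, with 126 copies of ribosomal protein genes in purple and 57 copies of other genes in orange. Of the 25 members at the right edge, 17 stand at 100 RPKM or above.

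Some identical copies had the same or nearly the same values. Rpl35a-ps3, Rpl35a-ps4 and Rpl35a-ps6 are copies of Rpl35a, a large ribosomal subunit gene, and lie on chromosomes 17, 2 and 5. They have the same 333 bases and differ from the coding sequence of Rpl35a at 1 of 330 bases. Their sequences are printed here over the stretch that holds that base, in capitals, from GENCODE M21 (mm10), at chr17:29137112-29137186 on the minus strand, chr2:108875066-108875140 on the minus strand and chr5:123255621-123255695 on the minus strand.
Rpl35a-ps3: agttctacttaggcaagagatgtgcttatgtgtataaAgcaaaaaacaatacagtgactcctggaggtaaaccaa
Rpl35a-ps4: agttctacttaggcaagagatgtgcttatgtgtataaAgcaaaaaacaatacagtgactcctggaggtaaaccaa
Rpl35a-ps6: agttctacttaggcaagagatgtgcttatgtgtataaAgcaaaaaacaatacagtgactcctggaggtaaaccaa
Rpl35a: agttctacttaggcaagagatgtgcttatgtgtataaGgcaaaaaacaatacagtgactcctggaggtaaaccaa
Rpl35a-ps3 stood at 276, 219 and 210.5 RPKM in K9M, 248, 176 and 148 RPKM in K36M, and 205, 155 and 159.7 RPKM in rtTA libraries. The 3 copies followed each other to within 0.0033 on the log2 scale in every library. Rps19-ps1 and Rps19-ps2, which also share all of their 438 bases, had identical values. Read back from the steps of the lowest values, each held 6.99, 13.0 and 2.00 reads in K9M libraries and 30.0, 13.0 and 23.0 in K36M libraries, whole numbers to within rounding at both places. The values of these identical copies therefore cannot be taken as separate measurements of each locus. How reads shared by them were counted was not tested.

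Most copies stood far below their parents. In each of the 9 libraries, 132 of the 169 members with a parent lay below it, and over the 164 with a parent above 0 the median copy had 2.20% of the parent's RPKM. The reverse held for 19 members, which lay above the parent in every library. Of these, 5 are copies of Rps12, whose row was listed at 0 throughout, and 4 of the 5 averaged 1.02 to 7.23 RPKM. Rpl23a-ps3 on chromosome 14, a copy of the large subunit gene Rpl23a, had the highest mean of the set. It stood at 2169, 1875 and 1817 RPKM in K9M, 1942, 1647 and 1617 RPKM in K36M, and 1979, 1435 and 1546 RPKM in rtTA libraries, where Rpl23a itself averaged 416 RPKM over the 9 libraries. Rpl10-ps3, one of the copies annotated as protein coding, averaged 1232 RPKM beside 91.8 RPKM of Rpl10, the X-linked parent. Rps15a-ps7 averaged 874 RPKM beside 57.4 RPKM of the small subunit gene Rps15a. Beside the 0 of Rps12, a small subunit gene, Rps12-ps3, which shares every 50-base word with it, averaged 381 RPKM. Another 7 of the 10 highest members were copies of ribosomal protein genes with means of 573 to 1723 RPKM: Rpsa-ps10, Rps6-ps4, Rpl28-ps1, Rpl10a-ps1, Rps16-ps2, Rpl31-ps8 and Rpl10-ps1. Of these, Rps16-ps2 lay below its parent in all 9 libraries, with a mean of 747 RPKM beside 817 RPKM of Rps16. Outside the ribosome, Nutf2-ps1 averaged 122 RPKM beside 13.6 RPKM of Nutf2, a nuclear import factor gene, and Scp2-ps2 65.4 RPKM beside 35.6 RPKM of Scp2, which encodes a sterol carrier protein. All members together held 2.94% to 3.70% of the summed RPKM of a library.

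The comparison of K9M with rtTA asked which copies differed in mice carrying the lysine 9 mutant. Eif5al3-ps, a copy of the translation factor gene Eif5a, was higher in K9M than in rtTA. Rpl3-ps1, a copy of the large subunit gene Rpl3, was present in K9M libraries and listed at 0 in the others. Tests used limma on log2(RPKM + 0.5) over all 12926 rows that passed the threshold, two-sided, and calls were made at an adjusted p under 0.05 (Benjamini-Hochberg). In all, 29 members, Rpl3-ps1 among them, fell below the threshold when some group was left out, several of them for more than 1 choice of group. Their differences were partly fixed by the choice of members, so counts were made over the 154 that pass whichever group is left out. The shares of all rows given beside them are over all 12926 rows, which were not filtered in this way. Of the 154 members 1 was called, Eif5al3-ps, while 0.116% of all rows tested were called, 0.0928% higher and 0.0232% lower. An unadjusted p under 0.05 was found for 12 of the 154, 7.79%, against 7.11% of all rows. Of the 154, 108 were positive, against 6627 of all 12926 rows, 67 of 82 parents tested and 69 of 80 tested cytosolic ribosomal protein genes. Identical copies, such as those of Rpl35a, were each counted. The median log2 fold change of the 154 was 0.15, against 0.01 over all rows. The median was 0.04 without rtTA 2, 0.10 without K9M 1 and 0.28 without rtTA 1. Of the parents 0 of 82 tested were called in K9M, and 4 had an unadjusted p under 0.05. The 80 tested cytosolic ribosomal protein genes had a median of 0.25 and 0 calls, with 2 at an unadjusted p under 0.05. Groups did not overlap for 17 of the 154, 11.04%, against 12.5% of all rows.

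Eif5al3-ps (chr5:90132229-90132675, plus strand, single exon) was chosen for description with its result already known. It lies in no intron and overlaps no other annotated exon. No row carries its stem, and the gene that shares most with it is Eif5a, the eIF5A translation elongation factor gene, with 23.6% of its 50-base words. The copy differs from the coding sequence of Eif5a at 12 of 434 bases. Their sequences are shown over the stretch with 7 of these differences, in capitals, with the copy at chr5:90132478-90132552 on the plus strand.
Eif5al3-ps: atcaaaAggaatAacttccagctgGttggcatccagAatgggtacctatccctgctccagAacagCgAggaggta
Eif5a: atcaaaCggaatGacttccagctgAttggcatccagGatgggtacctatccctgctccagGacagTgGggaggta
Eif5al3-ps stood at 41.6, 43.7 and 39.1 RPKM in K9M, at 51.8, 43.3 and 51.0 RPKM in K36M, and at 4.05, 3.31 and 1.08 RPKM in rtTA libraries. Every mutant library lay far above every control library, and the spread within each mutant group was small. The log2 fold change was 3.80 in K9M against rtTA (SE 0.33, limma adjusted p = 0.00397) and 4.03 in K36M against rtTA (SE 0.33, limma adjusted p = 0.00163). Both comparisons use the same control libraries. K36M against K9M gave 0.23 (SE 0.33, limma adjusted p = 0.767). Eif5a stood at 416, 427 and 360.5 RPKM in K9M, at 518, 409 and 415 RPKM in K36M, and at 417, 359.7 and 339 RPKM in rtTA libraries. It was not called in K9M (0.11, limma adjusted p = 0.894) or K36M (0.26, limma adjusted p = 0.348). Both calls of Eif5al3-ps held in all 19 alternative settings tried, with limma adjusted p up to 0.0307 in K9M and 0.0184 in K36M.

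Rpl3-ps1 lies on the X chromosome (chrX:13202571-13203780, plus strand) and is the one member that reached the threshold through a single group. It is therefore described without a test. It stood at 113, 390.2 and 100.3 RPKM in K9M and was listed at 0 in all 3 K36M and all 3 rtTA libraries. It differs from the coding sequence of Rpl3 at 2 of 1209 bases. The stretch that holds the first of them is shown, in capitals, with the copy at chrX:13202600-13202674 on the plus strand.
Rpl3-ps1: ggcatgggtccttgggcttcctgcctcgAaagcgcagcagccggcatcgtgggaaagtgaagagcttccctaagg
Rpl3: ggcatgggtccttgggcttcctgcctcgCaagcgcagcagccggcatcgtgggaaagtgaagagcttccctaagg
Rpl3 stood at 1942, 1141 and 1670.1 RPKM in K9M, at 1996, 1687 and 1803 RPKM in K36M, and at 2064, 1458 and 1845 RPKM in rtTA libraries. Its lowest value fell in K9M 2, the library with the highest value of Rpl3-ps1. Summed with its copies, the Rpl3 family ranged over 0.50 on the log2 scale across the 9 libraries, against 0.85 for Rpl3 alone. Rpl3-ps1 shares 91.4% of its 50-base words with Rpl3.

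**Figure D2:**
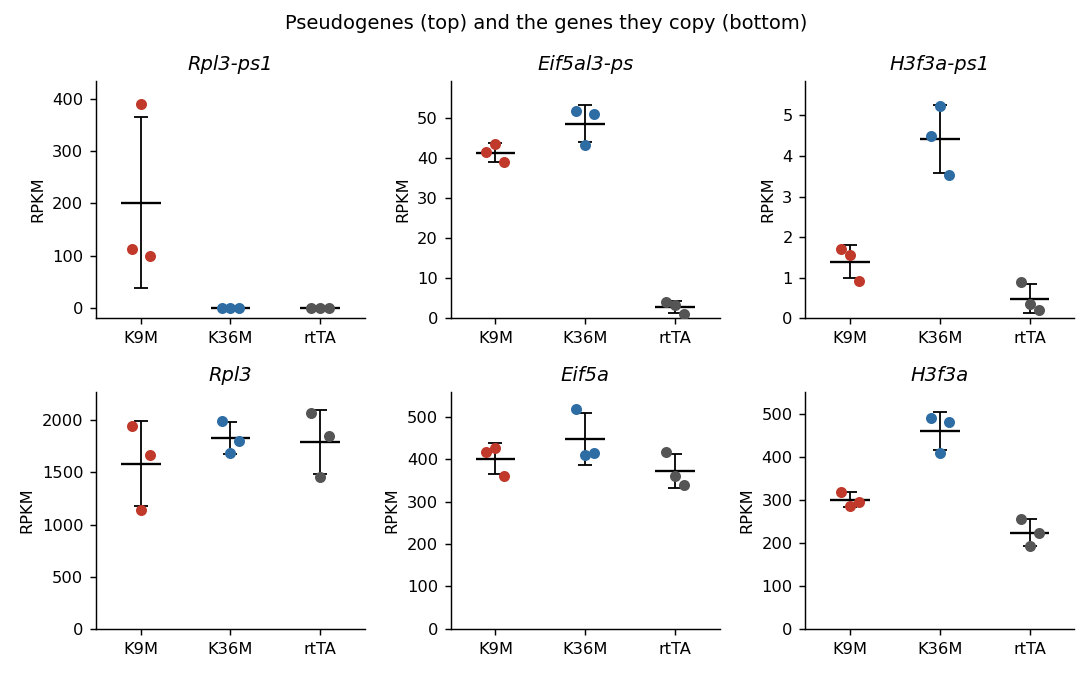
RPKM of Rpl3-ps1, Eif5al3-ps and H3f3a-ps1 (top) and of Rpl3, Eif5a and H3f3a (bottom) in each K9M, K36M and rtTA library (points), with the group mean and SD (n = 3). Eif5al3-ps stands between 39.1 and 51.8 RPKM in the 6 mutant libraries and at or below 4.05 RPKM in the 3 rtTA libraries.

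Other members of the K9M comparison were carried by single libraries or did not pass. Rplp0-ps1, a copy of the ribosomal stalk gene Rplp0 that lies within an intron of Flg, stood at 35.7, 35.1 and 4.66 RPKM in K9M, at 5.45, 2.58 and 3.11 RPKM in K36M, and at 4.52, 2.15 and 2.14 RPKM in rtTA libraries. K9M libraries 1 and 2 were high and the third was not, and the difference was not called (2.52, SE 0.68, limma adjusted p = 0.419). Without K9M 3 it was called (3.45, limma adjusted p = 0.0149). Rps18-ps3, a copy of the small subunit gene Rps18 on chromosome 8, stood at 20.9, 19.9 and 22.3 RPKM in K9M, at 30.2, 28.8 and 42.8 RPKM in K36M, and at 36.5, 48.8 and 51.7 RPKM in rtTA libraries. The 3 K9M libraries lay close together and below every other library, with a log2 fold change of -1.08 (SE 0.18, limma adjusted p = 0.0867). The difference was called in 2 of 19 settings, without rtTA 1 (limma adjusted p = 0.0411) and with library weights (limma adjusted p = 0.0137). The copy differs from the coding sequence of Rps18 at 3 of 456 bases, so its level is uncertain. Rps18 had the opposite sign, 0.28 (limma adjusted p = 0.794). Mrps36-ps2, Rpl18-ps1 and Rpl19-ps11 also had K9M and rtTA groups that did not overlap, with log2 fold changes of -1.38, -0.79 and 0.97, and none was called (limma adjusted p = 0.548, 0.633 and 0.761).

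Some copies of ribosomal protein genes were far higher in single K9M libraries than in the others of that group. In K9M 3 or K9M 1 the parent then had its lowest value of the 9 libraries. Rps13-ps1 on chromosome 8 differs from the coding sequence of the small subunit gene Rps13 at 2 of 453 bases, and Rps13-ps2 on chromosome 7 at 0. The stretch that holds both differences of Rps13-ps1 is shown, in capitals, with the copy at chr8:87048086-87048160 on the plus strand.
Rps13-ps1: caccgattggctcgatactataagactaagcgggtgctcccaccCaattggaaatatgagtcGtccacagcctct
Rps13: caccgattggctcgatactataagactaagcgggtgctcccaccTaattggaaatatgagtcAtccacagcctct
Rps13-ps1 stood at 0.569, 243 and 786 RPKM in K9M, at 0, 0.286 and 0.42 RPKM in K36M, and at 0.926, 1.08 and 0 RPKM in rtTA libraries. Rps13 stood at 919.6, 515 and 89.3 RPKM in K9M, at 662, 559 and 398 RPKM in K36M, and at 752, 509 and 501 RPKM in rtTA libraries. K9M 3, with the highest value of the copy, had the lowest value of the parent. In K9M 2, where the copy was also high, the parent stood at its median over the 9 libraries. Rps13-ps2 followed the parent, with 704, 390.4 and 92.1 RPKM in K9M libraries. Rps13 with its 3 member copies ranged over 0.81 on the log2 scale across the 9 libraries, against 3.36 for Rps13 alone. Rps13-ps1 is among the 29 members that fail the threshold when some group is left out, here K9M or rtTA, and it is described without a test.

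Copies that were high where the parent was low were also seen in the families of Rps2 and, in 1 library, of Rpl34. Rps2-ps10, a transcribed copy of the small subunit gene Rps2 within an intron of Pde6a, stood at 194, 689.8 and 1044 RPKM in K9M, at 238, 199 and 549 RPKM in K36M, and at 710.2, 199.5 and 190.3 RPKM in rtTA libraries. Rps2 stood at 1605, 999 and 487 RPKM in K9M, at 1655, 1149.8 and 808 RPKM in K36M, and at 861, 1036 and 1136 RPKM in rtTA libraries. In each group the library with the most Rps2-ps10 had the least Rps2, and the sum with the member copies ranged over 0.62 on the log2 scale, against 1.76 for Rps2 alone. Rpl34-ps1, a copy of the large subunit gene Rpl34 on chromosome 6, stood at 658 RPKM in K9M 1 and between 73.7 and 137 RPKM in the other 8 libraries. Rpl34 had its lowest value, 273 RPKM, in K9M 1. There the sum did not even out, with a range of 1.05 against 0.95 for Rpl34 alone. Over all 83 families the sum had the smaller range in 44.

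**Figure D3:**
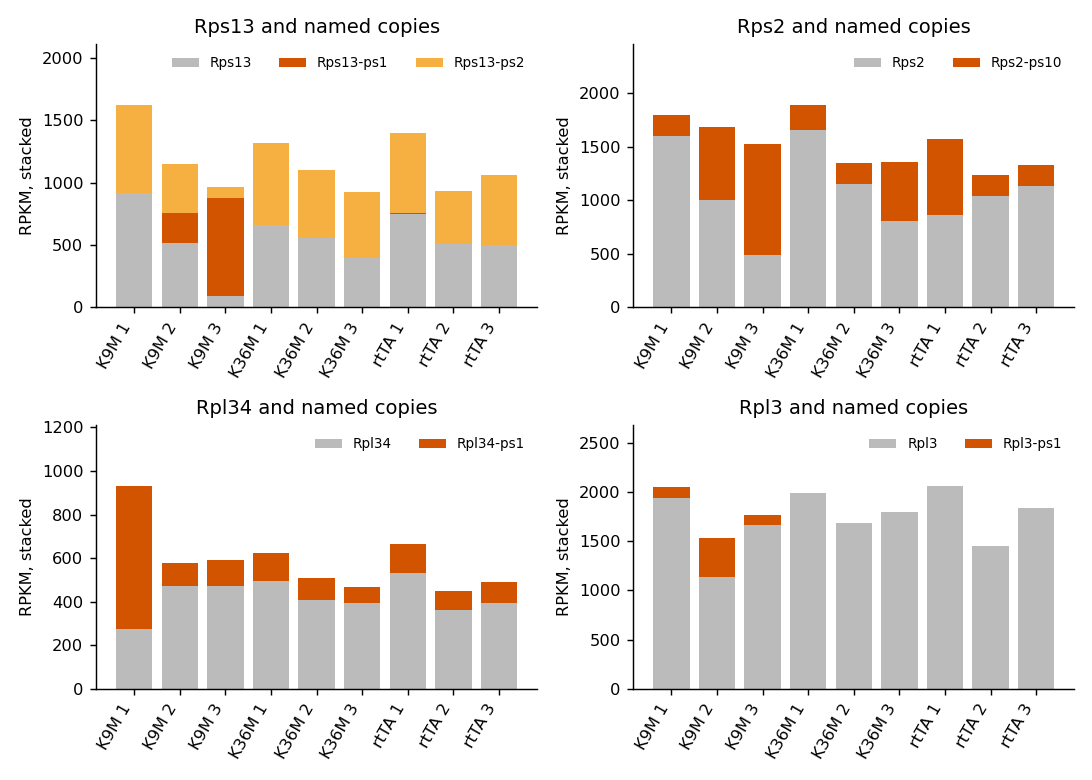
Stacked RPKM of 4 parent genes (grey) and named copies (orange and yellow) in each K9M, K36M and rtTA library, for Rps13, Rps2, Rpl34 and Rpl3. In the Rps13 panel Rps13 and Rps13-ps2 are both low in K9M 3, at 89.3 and 92.1 RPKM, where Rps13-ps1 stands at 786 RPKM.

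A copy that is less like its parent was also high in a single library. Rps15a-ps8 on chromosome 4 differs from the coding sequence of Rps15a at 30 of 387 bases and shares 9.47% of its 50-base words with other genes. The stretch shown holds 11 of the differences, in capitals, with the copy at chr4:53791348-53791422 on the minus strand.
Rps15a-ps8: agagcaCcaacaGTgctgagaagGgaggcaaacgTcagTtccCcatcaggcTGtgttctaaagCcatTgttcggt
Rps15a: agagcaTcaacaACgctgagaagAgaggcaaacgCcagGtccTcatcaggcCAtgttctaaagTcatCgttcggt
Rps15a-ps8 stood at 3.91, 3.39 and 234 RPKM in K9M, at 4.68, 2.8 and 2.21 RPKM in K36M, and at 2.5, 1.15 and 3.31 RPKM in rtTA libraries. K9M 3 alone was high, and the group difference was not called (2.58, SE 1.32, limma adjusted p = 0.736). Rps15a had its lowest value of the 9 libraries, 41.6 RPKM, in K9M 3 as well, against 46.7 to 71.4 RPKM in the others. In that library Rps15a-ps7, the most abundant copy of the family, stood at 522 RPKM, below its 8 other values of 689.7 to 1192 RPKM. Rpl30-ps10, a copy of the large subunit gene Rpl30 on the X chromosome, varied widely between libraries of 1 group. It stood at 12.04, 87.0 and 4.73 RPKM in K9M and at 64.2, 1.37 and 0.231 RPKM in rtTA libraries, and was listed at 0 in all 3 K36M libraries. K36M thus lay below both other groups without overlap. The copy reached the threshold only with the K9M libraries, so no test is given. Rpl30 stood at 194 to 205 RPKM in K36M, 153 to 215 RPKM in K9M and 191 to 249 RPKM in rtTA libraries.

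Across the set, levels varied more between libraries than those of the parents or of all rows tested. The log2 range over the 9 libraries had a median of 1.31 for members, 0.70 for parents and 0.72 for all rows tested. A range over 3 was found for 22 members, 12.02%, against 2.70% of all rows. At means of 100 RPKM or above the member median was 0.80 against 0.67 for all rows of that level, and at 10 to 100 RPKM it was 1.62 against 0.60. Below 10 RPKM, where 122 of the members lie, it was 1.34 against 0.87. The part of low read numbers and of the assignment of shared reads in this spread was not tested. Among the 22 were Rps13-ps1, Rpl3-ps1, Rpl30-ps10, Rps15a-ps8 and Eif5al3-ps, with ranges of 10.6, 9.61, 7.45, 7.15 and 5.05. Of the 22, 15 pass the threshold whichever group is left out, and 1 of these, Eif5al3-ps, was called against rtTA. Kansl2-ps, a copy of a chromatin complex gene, shows the pattern at a low level, with 1.31, 6.54 and 0 RPKM in K9M, 3.51, 0 and 4.56 RPKM in K36M, and 0, 7.34 and 7.83 RPKM in rtTA libraries, while Kansl2 stayed between 31.7 and 39.4 RPKM.

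For K36M against rtTA the question was which copies differed with the lysine 36 mutant. Eif5al3-ps was higher, and no copy of a ribosomal protein gene was called in K36M against rtTA. Of the 154 members that pass whichever group is left out 1 was called, Eif5al3-ps, beside 1.5% of all rows tested (0.572% higher and 0.928% lower). Of the 154, 89 were positive, against 6755 of all 12926 rows, 64 of 82 parents tested and 62 of 80 tested cytosolic ribosomal protein genes. The median log2 fold change of the 154 was 0.05, against 0.02 over all rows. This median ran from -0.02 without rtTA 2 to 0.18 without rtTA 1, and was -0.0027 without K36M 1, 0.02 without rtTA 3, 0.08 without K36M 2 and 0.11 without K36M 3, so it has no stable sign. An unadjusted p under 0.05 was found for 8 of the 154, 5.19%, against 19.1% of all rows, and groups without overlap for 10, 6.49%, against 22.3%. H3f3a was the 1 parent called of 82 tested. The 80 tested cytosolic ribosomal protein genes had a median of 0.06 and 0 calls, with 1 at an unadjusted p under 0.05, and their 126 member copies a median of 0.04.

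H3f3a-ps1 on the X chromosome and H3f3a-ps2 on chromosome 16 are processed copies of H3f3a, and differ from its coding sequence at 7 and 5 of 408 bases. The first 120 coding bases are shown because they hold the codons of lysine 9 and lysine 36, in capitals, which the transgenes change. The copies lie at chrX:101824515-101824634 on the plus strand and chr16:91114480-91114599 on the minus strand.
H3f3a-ps1: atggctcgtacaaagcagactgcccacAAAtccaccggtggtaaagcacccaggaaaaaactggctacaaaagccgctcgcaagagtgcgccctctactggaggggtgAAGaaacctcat
H3f3a-ps2: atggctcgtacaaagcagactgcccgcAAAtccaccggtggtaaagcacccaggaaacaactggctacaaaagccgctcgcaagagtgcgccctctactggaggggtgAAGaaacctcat
H3f3a: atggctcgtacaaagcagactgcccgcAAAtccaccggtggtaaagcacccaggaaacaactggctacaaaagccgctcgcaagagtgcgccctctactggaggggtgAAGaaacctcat
Both copies keep the lysine codons, and in this stretch H3f3a-ps1 differs from H3f3a at 2 bases and H3f3a-ps2 at 0. Both reached the threshold only with the K36M libraries, so their difference in K36M was partly fixed by the choice of members and no test is given. H3f3a-ps1 stood at 1.7, 1.56 and 0.923 RPKM in K9M, at 4.48, 5.23 and 3.54 RPKM in K36M, and at 0.883, 0.361 and 0.195 RPKM in rtTA libraries. The 3 groups did not overlap, with K36M highest and rtTA lowest. K9M and rtTA were parted only narrowly, as K9M 3 at 0.923 and rtTA 1 at 0.883 RPKM each rest on about 5.99 reads. The log2 fold change was 2.37 in K36M against rtTA and 1.39 in K36M against K9M. H3f3a-ps2 stood at 3.34, 0.431 and 0 RPKM in K9M, at 3.87, 3.1 and 8.56 RPKM in K36M, and at 0, 1.01 and 0 RPKM in rtTA libraries. It overlapped between K9M and rtTA and between K36M and K9M, but not between K36M and rtTA, where the log2 fold change was 2.85. H3f3a itself was higher in K36M than in rtTA by 1.04 (SE 0.14, limma adjusted p = 0.0141), a call lost without K36M 1, K36M 3 or rtTA 3. Transgene reads could be counted at either copy, and the transgene sequence was not used here.

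Ap3s1-ps1, a copy of Ap3s1, which encodes a subunit of the AP-3 vesicle adaptor, was high in K36M 1 and K36M 3, as its parent was. It stood at 2.99, 2.25 and 3.01 RPKM in K9M, at 16.7, 4.57 and 13.6 RPKM in K36M, and at 2.57, 0.839 and 5.29 RPKM in rtTA libraries. Ap3s1 stood at 34.9, 47.3 and 37.6 RPKM in K9M, at 137, 60.4 and 133 RPKM in K36M, and at 53.9, 33.4 and 49.7 RPKM in rtTA libraries. K36M libraries 1 and 3 were the highest in both rows. K36M 2 lay within the rtTA range for the copy, below rtTA 3, and above all rtTA values for the parent. Against rtTA the copy gave 1.90 (SE 0.56, limma adjusted p = 0.124) and was called only with the replicate number as a block and without K36M 2. The parent gave 1.20 (SE 0.31, limma adjusted p = 0.0974). The copy shares 71.9% of its 50-base words with the parent.

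**Figure D4:**
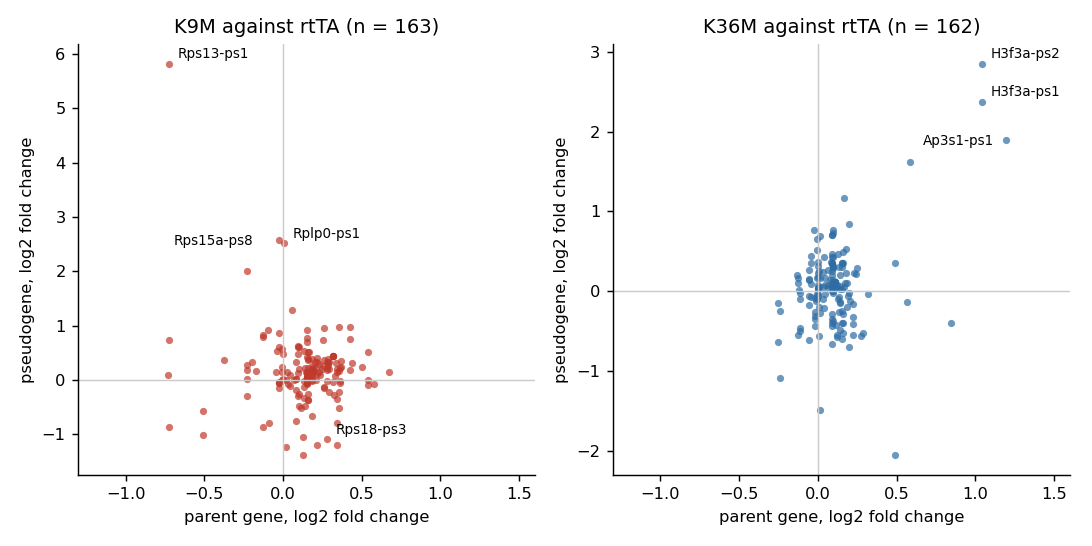
Log2 fold change of each copy (vertical axis) against that of its parent (horizontal axis) for K9M against rtTA (163 copies) and K36M against rtTA (162 copies), leaving out copies with a group listed at 0. Most points lie within 1 of zero on both axes. Among those further up are Rps13-ps1, Rps15a-ps8 and Rplp0-ps1 in K9M, and H3f3a-ps1, H3f3a-ps2 and Ap3s1-ps1 in K36M. Some copies lie below -1, among them Mrps36-ps2 at -1.38 and Rps18-ps3 at -1.08 in K9M.

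The other named members of the K36M comparison had small or scattered differences. Rps2-ps13, Rps15a-ps5 and Hmgb1-ps5 had K36M values above all rtTA values, with log2 fold changes of 0.84, 0.76 and 0.73 (limma adjusted p = 0.105, 0.375 and 0.186). Rpl21-ps3, Dnajc19-ps and Rpl36-ps3 had K36M values below all rtTA values, with -0.61, -0.33 and -0.28 (limma adjusted p = 0.324, 0.61 and 0.268). Rpl27-ps2, which fails the threshold when K9M or rtTA is left out, also lay below all rtTA values, with -0.55. Hmgb1, which encodes an abundant chromatin protein, gave 0.10 (limma adjusted p = 0.72). Pisd-ps1 and Pisd-ps2, unprocessed copies of the mitochondrial phosphatidylserine decarboxylase gene, followed Pisd across libraries. Pisd-ps1 reached 38.9 RPKM in rtTA 2, where Pisd reached 26.6 RPKM, its highest value as well.

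K36M against K9M set the 2 mutants side by side. Among the 154 members that pass whichever group is left out limma called 0, beside 2.52% of all rows tested (1.02% higher and 1.5% lower). An unadjusted p under 0.05 was found for 7 of them, 4.55%, against 18.8% of all rows. The median of the 154 was -0.11, against 0.01 over all rows, and it was -0.02 without K9M 1. Groups did not overlap for 9 of the 154, 5.84%, against 27.9% of all rows. Ppp1r2-ps4, a copy of a phosphatase inhibitor gene, stood at 3.35, 2.12 and 3.04 RPKM in K36M, against 1.02, 0.836 and 0.714 RPKM in K9M libraries. The groups did not overlap, and the difference did not pass (1.28, SE 0.30, limma adjusted p = 0.0592), though it did in 5 of 18 settings. Mrps36-ps2, a copy of a gene named for the mitochondrial ribosome, stood at 13.8, 7.99 and 6.89 RPKM in K36M, against 1.92, 6.09 and 1.02 RPKM in K9M libraries (1.73, SE 0.47, limma adjusted p = 0.0885). Without K9M 2 this difference was called (2.33, limma adjusted p = 0.034). Rps18-ps3 gave 0.65 (limma adjusted p = 0.0885). It was called in 2 of 19 settings, with library weights (limma adjusted p = 0.0445) and with the replicate number as a block (limma adjusted p = 0.0434). Rpl10a-ps2 lay below the K9M values without overlap, by a difference that did not pass (-0.46, limma adjusted p = 0.522). Rps19-ps8, which fails the threshold when K9M or rtTA is left out, also lay below the K9M values without overlap, with -0.47. The 80 tested cytosolic ribosomal protein genes had 0 calls and a median of -0.18, with 1 at an unadjusted p under 0.05.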

How the data were processed

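The authors deposited 1 table of RPKM values, already scaled to transcript length and library size, for 9 libraries. CASAVA 1.7, STAR and mm10 are named, per the submitters' processing notes; neither the rule for reads that fit several places nor the strand setting is given there. The extract protocol names a total RNA kit, while the molecule is labelled polyA RNA. The members and lists were chosen with earlier results of these data known. Rows were matched to GENCODE M21 by identifier for 182 members and by symbol for Rpl31-ps12. Identity was measured with blastn 2.17.0, and sequences were cut into words of 50 bases. log2(RPKM + 0.5) was fitted for rows with at least 1 RPKM in at least 3 libraries, with 1 mean per group, by limma 3.58.1 (R 4.3.3) with a mean-variance trend, and the fit was tested on simulated data. Fold changes on this scale understate changes of low rows. Depth was read from single-read steps, and between 84.7% and 86.7% of values up to 20 reads came out whole within 0.05 reads (10% by chance), so reads are approximate and no count test was run.

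Members were named if called; if among the 5 largest rises or falls with groups that did not overlap and a parent row; if among the 10 highest means; if next to the threshold; or if a copy of an H3.3 gene. Rps2-ps10, Rpl34-ps1, Rpl35a copies, Rps19-ps1, Rps19-ps2, Kansl2-ps, Nutf2-ps1, Scp2-ps2, Rps12-ps3, Pisd-ps1, Pisd-ps2 and the rows H3f3b and H3f3c were chosen after their values were seen. Same-number libraries of K36M and rtTA deviated together from their group means (correlations across rows 0.4145, 0.3691 and 0.3769), which comes from the data and not from the labels; those of K9M did not pair with either group by this rule. P-values over libraries measure the spread between 3 libraries a group.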

Additional observations from a re-analysis of the deposited data

How the results depend on the processing

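Eif5al3-ps was called in K9M and in K36M against rtTA in all 19 settings. The medians over the 154 members that pass whichever group is left out ran, with a library left out, from 0.0389 to 0.2839 for K9M against rtTA, from -0.0184 to 0.1761 for K36M against rtTA and from -0.1666 to -0.0211 for K36M against K9M; over all 183 members the ranges were 0.0321 to 0.2761, -0.0185 to 0.1696 and -0.1651 to -0.023. Calls among the 154 were 1, 1 and 0 in these comparisons. They numbered 2 in K9M against rtTA with library weights and 1 to 2 with a library left out, 1 to 2 in K36M against rtTA with a library left out, and in K36M against K9M 1 with quantile normalization or only the groups compared, 2 with library weights and 0 to 1 with a library left out. Over all 183 the calls were 2 in each comparison, but these include Rpl3-ps1 or H3f3a-ps1, which reached the threshold through the group where they are high; they numbered 2 to 3 with a library left out for K9M against rtTA, 1 with a stricter filter and 1 to 3 with a library left out for K36M against rtTA, and for K36M against K9M 1 with a pseudocount of 0.1, no filter, a stricter filter or libraries centred on the median, 4 with library weights or only the groups compared, and 1 to 4 with a library left out. H3f3a, the 1 parent called in K36M against rtTA, was lost with only the groups compared (0 parents; 0 to 3 with a library left out). In K36M against K9M the parents called numbered 2 with quantile normalization or library weights, and 0 to 3 with a library left out. The replicate block, by replicate number, called 3 members for K36M against rtTA, adding Ap3s1-ps1 (2 of the 154), and for K36M against K9M, where numbers did not pair, 4 members (2 of the 154), 3 parents and 1 ribosomal protein gene. H3f3a-ps2 in K9M against rtTA turned to -0.0824 without K9M 1 (-0.0824 to 1.39 with a library left out). The set passing whichever group is left out was added after seeing the data. The cause of these changes was not tested, other than the smaller number of members or libraries. Depth limits the low copies: in rtTA 3, H3f3a-ps1 rests on about 2.00 reads.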

Other observations

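Members whose names end in -ps with no parent row numbered 14. Besides Eif5al3-ps, the copy Hsp25-ps1 stood at 42.6, 27.0 and 30.2 RPKM in K9M, at 45.2, 35.1 and 20.4 RPKM in K36M, and at 79.9, 36.6 and 28.4 RPKM in rtTA libraries. Hspb1, the small heat shock protein gene, stood at 111 RPKM in rtTA 1 as well, its highest value. Eif3s6-ps2, named for an older symbol of the translation initiation gene Eif3e, stood at 84.1 RPKM in K9M 1 and between 17.0 and 36.4 RPKM in the other libraries, while Eif3e stayed between 193 and 278 RPKM.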
